A study of Homo sapiens with 16 samples.

Results

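Z-138 and Maver-1 are mantle cell lymphoma lines that the study ties to the alternative NF-kB pathway, and the question here was what an inhibitor of IKKbeta still changed in them. Cells of each were kept for 20 hours in 5 uM AFN700, the inhibitor, or in 0.025% DMSO, the solvent, and every line has 1 Affymetrix expression array for either treatment. The comparison therefore rests on 4 of the 16 arrays of the series, 2 with AFN700 and 2 with DMSO, chosen by cell line and paired by it. The other 12 arrays hold the same treatments of 6 more lines, of which REC-1 and SP49 are labelled sensitive to "stn" and ibrutinib. Z-138, Maver-1, GRANTA-519, JVM-2, HBL-2 and JVM-13 are labelled insensitive. The treated array of JVM-13 carries AFN700 in its title and AFN701 in its treatment field. RPMI with fetal bovine serum was the medium of every line but GRANTA-519, which had DMEM. Nothing in the labels describes a second culture of any line, so the line is the replicate. A single line has no error of its own. No p-value covers more than the spread among lines, each seen through 1 array a treatment, which may in part be technical. In the fit of the 4 arrays the error came from genes of like intensity. Its p-values therefore do not measure a gene's own spread among lines.

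In the classical NF-kB pathway, IKKbeta works in a complex with IKKalpha and the scaffold NEMO and marks the inhibitor IkBalpha for destruction, which frees dimers such as p50 and RelA to enter the nucleus. Several of the genes they induce, such as NFKBIA and TNFAIP3, encode brakes on the pathway, so their RNA is widely used as a readout of its activity. In the alternative pathway the kinase NIK, encoded by MAP3K14, activates IKKalpha without IKKbeta, and p100, the product of NFKB2, is processed to p52, which pairs with RelB. TRAF3 and the ligases TRAF2, BIRC2 and BIRC3 keep NIK low in resting B cells.

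Levels are the deposited array intensities on a linear scale, and differences are AFN700 minus DMSO on a log2(intensity + 3.3) scale, which understates the differences of dim genes. A gene was tested where its intensity passed 50 on at least 1 array of each line, which left 8674 of 19775 genes. The arrays bore out the label of mantle cell lymphoma. CCND1, which encodes cyclin D1, stood at 2093.1 and 2170.7 in Z-138 with DMSO and AFN700 and at 1018.9 and 1138.7 in Maver-1. SOX11 was also high, while CD5, the third marker, was at 0.7 and 1.4 in Z-138. Of 7 measured B-cell markers, 4 exceeded 50 on both Z-138 arrays and 6 to 7 did so in Maver-1. Myeloid markers were below 50 on every array (0 of 8, summed intensity 29.4 to 59.6). T-cell markers passed 50 in 0 to 2 of 8 cases (summed intensity 85.7 to 267), with CD3G at 106.1 and 91.6 in Z-138. Fibroblast markers passed it in 1 of 6 on each array through COL1A1 (153 to 409.1). Epithelial markers passed it in 0 of 6 in Z-138 and in 2 of 6 in Maver-1, where EPCAM stood at 333.1 and 357.1. RNA quality moved with the treatment, since the 3'/5' ratio of the actin control probes, which grows as RNA breaks down, was 3.5 with DMSO and 5.43 with AFN700 for Z-138 and 10.3 and 18.8 for Maver-1. Its part in the results below was not tested.

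The classical readout genes stayed close to their control levels in both lines. NFKBIA, which encodes IkBalpha, stood at 509.5 with DMSO and 471.8 with AFN700 in Z-138 and at 379.6 and 382.6 in Maver-1. The treated and control arrays overlapped. In REC-1 the same gene stood at 543.6 and 217.7, and in SP49 at 517.3 and 165.1. The mean log2 difference in Z-138 and Maver-1 was -0.05 ± 0.19 (SE, n = 2 lines), with a 95% interval of -0.42 to 0.32 (limma adjusted p = 0.97). This interval rests on the error of genes of like intensity and not on the spread of NFKBIA itself. REC-1 stood at -1.31 and SP49 at -1.63. The direct limma test of the difference between the 2 pairs of lines, described below, did not pass for NFKBIA (limma adjusted p = 0.086).

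TNFAIP3 encodes A20, a ubiquitin-editing enzyme that shuts off signals to the IKK complex. Its intensity was 865 with DMSO and 837.1 with AFN700 in Z-138, and 382.5 and 399.4 in Maver-1. In REC-1 it was 467.9 and 137.9, and in SP49 384.4 and 66.6. Z-138 and Maver-1 thus kept TNFAIP3 within a log2 difference of -0.05 and 0.06, where REC-1 and SP49 stood at -1.74 and -2.47. A second, dimmer probe set for TNFAIP3 did not tell the same story in Z-138. It stood at 414.7 and 275.3 there and at 139 and 115.9 in Maver-1, log2 differences of -0.59 and -0.26, against 204.8 and 50.6 in REC-1 and 167.6 and 20.1 in SP49. By this probe set, too, the difference in Z-138 and Maver-1 was smaller than in the sensitive lines, but Z-138 was 1.5-fold lower with AFN700.

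The promoters of NFKBIA and TNFAIP3 show how directly such genes carry the letters that NF-kB dimers bind. Each stretch runs from 250 bases before to 50 bases after the RefSeq gene start (GRCh38.p14), 5′ to 3′ on the gene's own strand, and capitals mark matches to the consensus kappaB motif searched on both strands. NFKBIA lies at chr14:35404700-35404999 on the minus strand and TNFAIP3 at chr6:137867009-137867308 on the plus strand.
NFKBIA: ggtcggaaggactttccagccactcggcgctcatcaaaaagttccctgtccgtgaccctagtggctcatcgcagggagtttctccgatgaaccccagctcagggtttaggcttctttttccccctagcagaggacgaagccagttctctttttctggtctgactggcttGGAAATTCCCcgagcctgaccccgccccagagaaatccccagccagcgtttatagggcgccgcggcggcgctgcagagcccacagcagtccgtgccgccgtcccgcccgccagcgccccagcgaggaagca
TNFAIP3: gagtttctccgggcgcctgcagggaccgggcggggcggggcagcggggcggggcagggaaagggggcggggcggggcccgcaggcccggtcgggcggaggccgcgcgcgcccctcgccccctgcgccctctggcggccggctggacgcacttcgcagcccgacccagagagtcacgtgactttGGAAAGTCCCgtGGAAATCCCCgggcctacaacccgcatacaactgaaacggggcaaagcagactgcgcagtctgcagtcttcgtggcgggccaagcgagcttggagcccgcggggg
NFKBIA holds 1 match and TNFAIP3 holds 2. Of the 14 feedback genes tested here that had a promoter entry, 9 (64.3%) held at least 1 match, against 8.39% of 7291 tested genes with an entry. Counted per promoter and not per gene, 5.91% of all 35116 promoters of that length held one. The list was drawn up as NF-kB genes, so its share describes the list and not the response. A match is a string of letters and not a measured binding site.

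Across the classical NF-kB genes the lines differed in how far they moved. Of 16 tested feedback and signalling genes, 5 were lower in both lines and 4 higher in both, with medians of -0.15 in Z-138 and 0.06 in Maver-1, against 0.03 and 0.01 over all genes tested. Over all 8674 genes 24.3% were lower in both lines and 30.7% higher in both. Limma, with the line as a block, passed 0 of the 16 at an adjusted p under 0.05, where it passed 80 of 8674 genes (0.922%), and at an unadjusted p under 0.05 it passed 833 of the 8674. NFKB1, which encodes the p105 precursor of p50, was among those lower in both, at 267.2 and 235 in Z-138 and at 373 and 326.5 in Maver-1 (limma adjusted p = 0.844). Its groups overlapped. NFKBIE, another inhibitor gene, went opposite ways, at 245.8 and 203.9 in Z-138 and at 200.3 and 232.7 in Maver-1. RELA stood at 596.7 and 603 in Z-138 and at 407.7 and 500.9 in Maver-1.

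Targets of survival and adhesion split by line in the same way. Of 18 tested, 14 were lower in Z-138 against 5 in Maver-1, with medians of -0.21 and 0.16. Over all 8674 genes tested, 3911 were lower in Z-138 and 4200 in Maver-1. Only PLEK passed the test among the 18. PLEK encodes pleckstrin, a substrate of protein kinase C, and stood at 850.9 and 437 in Z-138 and at 1368.1 and 1134 in Maver-1. It fell by 0.61 ± 0.15 on the log2 scale (SE, n = 2 lines, limma adjusted p = 0.0149), most of it in Z-138, and treated and control arrays overlapped because the lines began at different levels. A second PLEK probe set went the same way, at 117.5 and 48.4 in Z-138 and at 81.4 and 56.5 in Maver-1.

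The other survival genes did not pass, and several showed a difference in Z-138 alone. CFLAR, an inhibitor of caspase 8, stood at 364.1 and 239.1 in Z-138 and at 237.5 and 291.1 in Maver-1. Its other probe sets did not share a direction in Z-138, with 289.2 and 179.2 for a second one and 89.8 and 136.4 for a dimmer one. The kinase gene PIM1 stood at 473.1 and 292 in Z-138 and at 657.3 and 729.9 in Maver-1. JUNB, an AP-1 subunit, stood at 191.8 and 107.1, and at 120.9 and 134.9. In all 3 the treated and control arrays overlapped. CD69, an early activation marker, stood at 605 and 349.3 in Z-138 and at 768.8 and 730.2 in Maver-1. By the brightest probe set of each of these genes, Z-138 was at least 1.5-fold lower with AFN700 and Maver-1 was not. ICAM1, an adhesion molecule, stood at 329.3 and 309.7 in Z-138 and 79.7 and 83.7 in Maver-1, where SP49 went from 232.5 to 42.1. A dimmer ICAM1 probe set stood at 182.5 and 140.7 in Z-138 and at 65.4 and 59.2 in Maver-1. IRF4, a transcription factor of activated B cells and plasma cells, stood at 1180.4 and 1088.2 in Z-138 and at 850.7 and 746.9 in Maver-1 (limma adjusted p = 0.817).

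Chemokines and cytokines of the classical pathway were mostly silent before any treatment. None of 17 measured members passed 50 in both lines, so none was tested in the 4-array fit. CXCL10, which attracts T cells, was at 4.0 on both Z-138 arrays and at 2.9 and 4.0 in Maver-1, whereas REC-1 stood at 246.4 and 3.0 and SP49 at 98 and 10.2. TNF did not exceed 4.0 and EBI3 did not exceed 1.9 on any array of Z-138 or Maver-1. CCL4, a chemokine that B-cell receptor signals induce, was the exception in Z-138, at 279.1 with DMSO and 53.4 with AFN700. In Maver-1 it stood at 13.4 and 7.0, near background. In Maver-1 the lymphotoxin genes were the ones above 50, LTA at 48.6 and 68.2 and LTB at 87.6 and 95.3, with neither lower after AFN700.

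**Figure D1:**
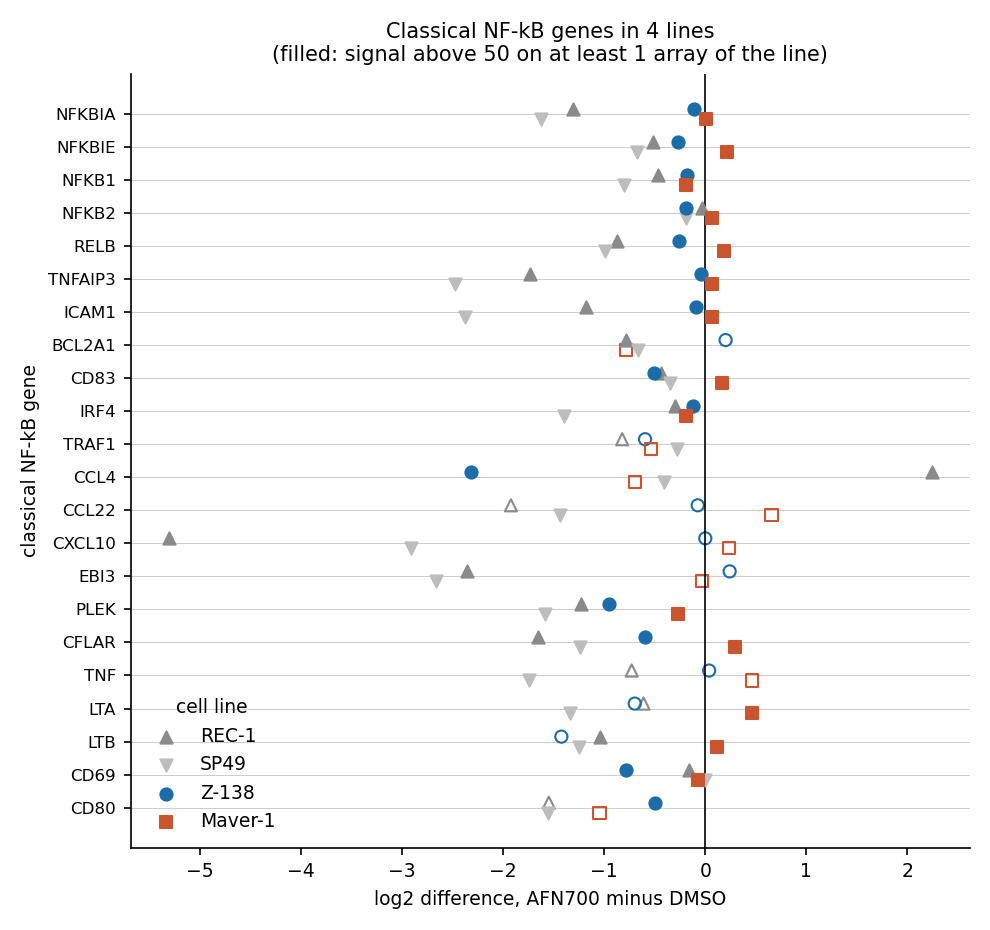
Log2 difference between the AFN700 and the DMSO array for 22 classical NF-kB genes in Z-138, Maver-1, REC-1 and SP49, with open symbols where neither array of a line passed an intensity of 50. NFKBIA and TNFAIP3 sit near 0 in Z-138 and Maver-1 (-0.11 and 0.01, and -0.05 and 0.06) and between -1.31 and -2.47 in REC-1 and SP49.

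With the 3 classical lists pooled, 36 of 63 measured genes passed 50 in Z-138, 27 of the 36 were lower with AFN700 and 6 were at least 1.5-fold lower, against 3.39% of all genes that passed 50 in that line. In Maver-1 it was 38, 12 and 1, against 4.2% of all genes. In REC-1 45 passed 50, 39 were lower and 19 at least 1.5-fold lower, and in SP49 it was 53, 48 and 26, against 4.65% and 3.45% of all genes. The medians of Z-138 and Maver-1 were -0.19 and 0.11, and those of REC-1 and SP49 were -0.46 and -0.41. Of the 8674 genes tested in Z-138 and Maver-1, 3911 were lower in Z-138, 4200 in Maver-1, 4101 in REC-1 and 3879 in SP49. The other lines labelled insensitive did not go 1 way. In GRANTA-519 27 of 54 and in JVM-2 15 of 53 genes were at least 1.5-fold lower, against 15.1% and 2.2% of all genes. In HBL-2 12 of 39 were that much lower, and in JVM-13, whose treated array has the unsettled label, 6 of 55, against 11.4% and 16.5% of all genes. The medians of the classical genes were -0.26 in HBL-2 and 0.47 in JVM-13. Over all genes above 50 they were 0.19 and 0.31, so in JVM-13 genes at large were also higher. The lines share no arrays, and the counts carry no test. The pooled classical genes thus had a median slightly above 0 in Maver-1 and below 0 in Z-138. Each line's set holds the genes above 50 in that line, so pooled counts and medians compare unlike sets across lines. Over the same 16 feedback genes, chosen by signal in Z-138 and Maver-1, REC-1 had a median of -0.3 and SP49 one of -0.27. Z-138 had -0.15 and Maver-1 0.06. Over the same 18 survival and adhesion genes, REC-1 had -0.45 and SP49 -0.37, beside -0.21 for Z-138 and 0.16 for Maver-1. On both shared lists Z-138 and Maver-1 thus had medians of smaller size, a contrast without a test.

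Of 16 measured genes of the alternative pathway 9 passed 50 in both lines, and none of the 9 passed the test. NIK's gene MAP3K14 stood at 59.2 and 54 in Z-138 and at 95.1 and 95 in Maver-1. NFKB2 stood at 198.5 and 173.7 in Z-138 and at 297.5 and 310.9 in Maver-1. Both Maver-1 arrays exceeded the other 14 arrays for NFKB2, on which it ranged from 29.6 to 248.1. RELB was dim, at 65.6 and 54.1 and at 56.1 and 64.1. The array of Maver-1 carried almost no TRAF3 signal, at 0.4 and 4.2, where the other 7 lines ranged from 156 to 421.2 and Z-138 stood at 374.4 and 421.2. A second TRAF3 probe set was also near background in Maver-1, at 5.4 and 3.4. In Z-138 it was lower with AFN700, at 246.2 and 142.1, a log2 difference of -0.78, so the 2 probe sets went opposite ways there. TRAF3 is the adaptor that holds NIK for degradation. BIRC2, a ligase of the same complex, was at 224.2 and 309.6 in Z-138 and at 354.7 and 426.9 in Maver-1, a mean difference of 0.36 ± 0.20 (SE, n = 2 lines, limma adjusted p = 0.57). CHUK, which encodes IKKalpha, stood at 507.4 and 596.8 in Z-138 and at 580.4 and 584.9 in Maver-1. CD40, a receptor that feeds both pathways, was at 86 and 69.2, and at 176.3 and 235.7. Of 9 tested genes of the pathway, 2 were lower and 2 higher in both lines, against 24.3% and 30.7% of all genes. Limma passed 0 of them, which says little for 9 genes when it passed 0.922% of all genes. BIRC3 and TRAF2 had no probe set of their own and are not analysed here.

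Of 4 tested genes that the alternative pathway is known to induce in other cells, ENPP2 alone passed the test. ENPP2 encodes autotaxin, which makes lysophosphatidic acid, and it stood at 424.3 with DMSO and 108.9 with AFN700 in Z-138. In Maver-1 it stood at 1044 and 1061.7. The call (-0.95 ± 0.18, limma adjusted p = 2.21e-04) therefore came from Z-138, and without that line the difference was 0.02.

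Apart from the NF-kB genes, each line moved by a similar amount and mostly in genes of its own. At least 1.5-fold differences were seen for 572 genes in Z-138 (6.59%; 263 lower and 309 higher) and for 557 in Maver-1 (6.42%; 279 lower and 278 higher). Of all genes tested, 35 (0.404%) were at least 1.5-fold lower in both lines and 32 (0.369%) at least 1.5-fold higher in both, while 25 (0.288%) moved that far in opposite directions. Only INHBE on the lower side, and 3 genes on the higher side, differed 2-fold in both. Across the 8674 genes the responses of the lines had a Pearson correlation of 0.16, which describes genes that are not independent replicates. Z-138 correlated at 0.42 with SP49, and Maver-1 at 0.31 with GRANTA-519. These pairs use different arrays, but any shared effect of culture or array processing is part of such values.

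**Figure D2:**
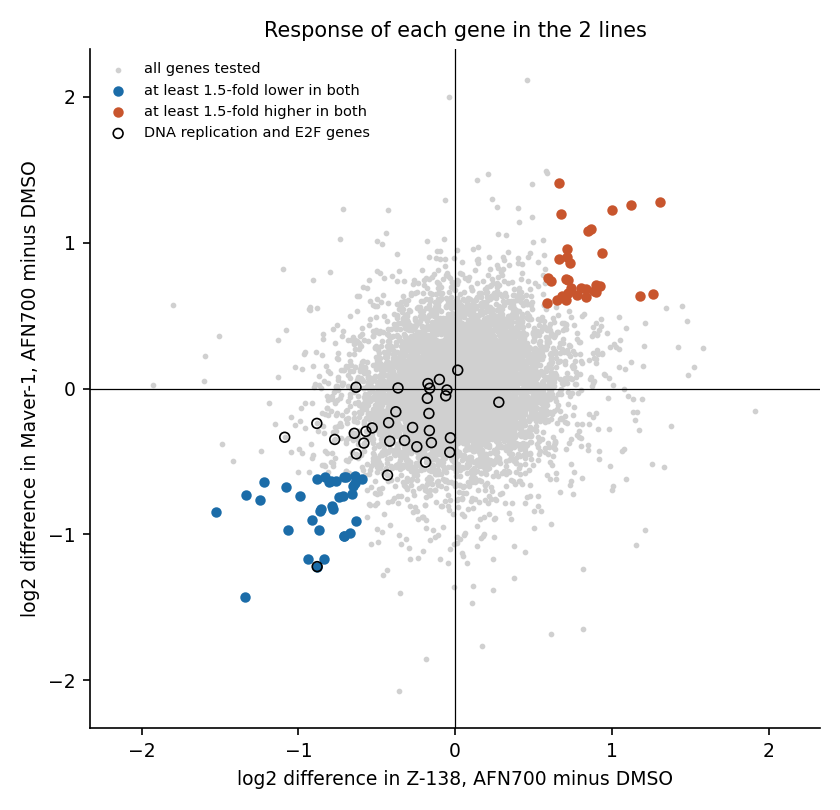
Log2 difference, AFN700 minus DMSO, in Z-138 (horizontal axis) and Maver-1 (vertical axis) for each of 8674 genes, with the 35 genes at least 1.5-fold lower in both lines in blue, the 32 at least 1.5-fold higher in both in orange, and open circles on the 32 DNA replication and E2F genes. Most of the open circles lie below and left of 0, where 25 of the 32 are found.

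Of the 80 genes that limma passed, 42 fell and 38 rose, and 78 had one sign in both lines. The exceptions were ENPP2 and RARS1, and 31 of the 80 were also past 1.5-fold in both lines. These calls are fragile. With 2 lines the fit has 1 residual degree of freedom and limma's trend model took the same error for genes of like intensity, so a gene's own disagreement between lines does not enter its p-value. Without the trend, or with 12 or more arrays in the fit, limma passed 0 genes, and with each array centred on its median it passed 44 genes, 29 lower and 15 higher. In the 12-array fit the smallest adjusted p among the named genes was 0.104, for SRGN.

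The genes named on the lower side included CDT1, CHTF18 and CLSPN, which act in DNA replication. Of these CDT1 alone is in the replication list described below. CDT1, which loads the MCM helicase onto origins, stood at 649.8 and 351.6 in Z-138 and at 614.9 and 261.9 in Maver-1. Both treated arrays lay below both controls, and CDT1 fell by 1.05 ± 0.19 on the log2 scale (SE, n = 2 lines, limma adjusted p = 4.14e-05). A second CDT1 probe set stood at 142.3 and 83.9, and at 116.7 and 89.2. CHTF18, part of a loader for the sliding clamp, stood at 300.3 and 154.9 in Z-138 and at 595 and 263.4 in Maver-1, and fell by 1.05 ± 0.21 (limma adjusted p = 3.78e-04). CLSPN, which encodes the checkpoint adaptor claspin, stood at 364.9 and 192.4 in Z-138 and at 307.9 and 163.4 in Maver-1, and fell by 0.91 ± 0.22 (limma adjusted p = 0.00857). The groups did not overlap for either gene. The 3 other CLSPN probe sets were dim, between 6.4 and 20.1, and 1 of them was higher with AFN700 in Z-138.

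INHBE, which encodes an inhibin subunit of the TGF-beta family, ranked first of the 35 genes by the smaller of its fold changes. It stood at 75.6 and 27.9 in Z-138 and at 70.6 and 24.2 in Maver-1, 2.53-fold and 2.69-fold, without overlap, and fell by 1.38 ± 0.31 (limma adjusted p = 0.00414). SP49 differed by -2.04 and REC-1 by 1.18, so the sensitive lines went opposite ways. SRGN, which encodes the granule proteoglycan serglycin, stood at 532.7 and 266.9 in Z-138 and at 754.7 and 450.5 in Maver-1, and fell by 0.86 ± 0.18 (limma adjusted p = 0.00145). Its groups did not overlap, and REC-1 and SP49 stood at 0.15 and -0.03 for SRGN.

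DLEU2 and MIR142 are host transcripts of microRNAs. DLEU2, which carries miR-15a and miR-16-1, stood at 751 and 357.5 in Z-138 and at 249.2 and 125.9 in Maver-1. It fell by 1.02 ± 0.21 (SE, n = 2 lines, limma adjusted p = 6.25e-04), and its groups overlapped because Z-138 began higher. The next brightest DLEU2 probe set stood at 311 and 110.1, and at 81.1 and 54.5, while the dim ones did not share 1 direction. The MIR142 locus, a transcript of blood cells, stood at 936.1 and 511.1 in Z-138 and at 378 and 191.1 in Maver-1, and fell by 0.92 ± 0.19 (limma adjusted p = 6.74e-04). A second MIR142 probe set stood at 422.4 and 335, and at 288.3 and 115.4. DLEU2 was lower in REC-1, SP49, GRANTA-519, JVM-2 and HBL-2 as well (-0.95, -0.77, -1.63, -0.90 and -0.95) and higher in JVM-13 (2.63, at 37.7 and 250.4). The arrays measure the host RNA and not the mature microRNAs.

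The mature sequences that these hosts carry are shown 5′ to 3′ from RefSeq (GRCh38.p14), with the seed, bases 2 to 8, in capitals, because the pair in DLEU2 shares its seed and the pair in MIR142 does not. They lie on the minus strand at chr13:50049167-50049188, chr13:50049027-50049048, chr17:58331283-58331303 and chr17:58331245-58331267 in the order given.
hsa-miR-15a-5p: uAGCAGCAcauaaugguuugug
hsa-miR-16-5p: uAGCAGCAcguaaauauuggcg
hsa-miR-142-5p: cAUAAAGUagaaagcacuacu
hsa-miR-142-3p: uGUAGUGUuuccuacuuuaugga

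The remaining named genes on the lower side were smaller or dimmer. H2AC17, a histone H2A gene, stood at 60.4 and 18.8 in Z-138 and at 60.2 and 32 in Maver-1 (limma adjusted p = 0.0341). SYNGR1 and RHEX also passed (limma adjusted p = 0.0416 and 0.047). NFKBID encodes an atypical IkB protein and did not pass (limma adjusted p = 0.165), although it stood at 64.1 and 35.9 in Z-138 and at 176.6 and 98.4 in Maver-1, and at -0.59 and -1.11 in REC-1 and SP49. SLC1A5, a glutamine transporter, stood at 132.9 and 78.1, and at 161.9 and 95.1 (limma adjusted p = 0.166). TLCD1, VMP1 and ZNF37BP did not pass either (limma adjusted p = 0.165, 0.0805 and 0.142). PSMD11, a lid subunit of the 26S proteasome, stood at 742.9 and 428.5 in Z-138 and at 1345.5 and 864.1 in Maver-1. It fell (limma adjusted p = 0.00325) and was the only one of 27 tested subunits to pass. Of the 35 genes, 6 rest on probe sets whose suffix warns of cross-hybridisation, among them those of DLEU2, CDT1 and MIR142.

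**Figure D3:**
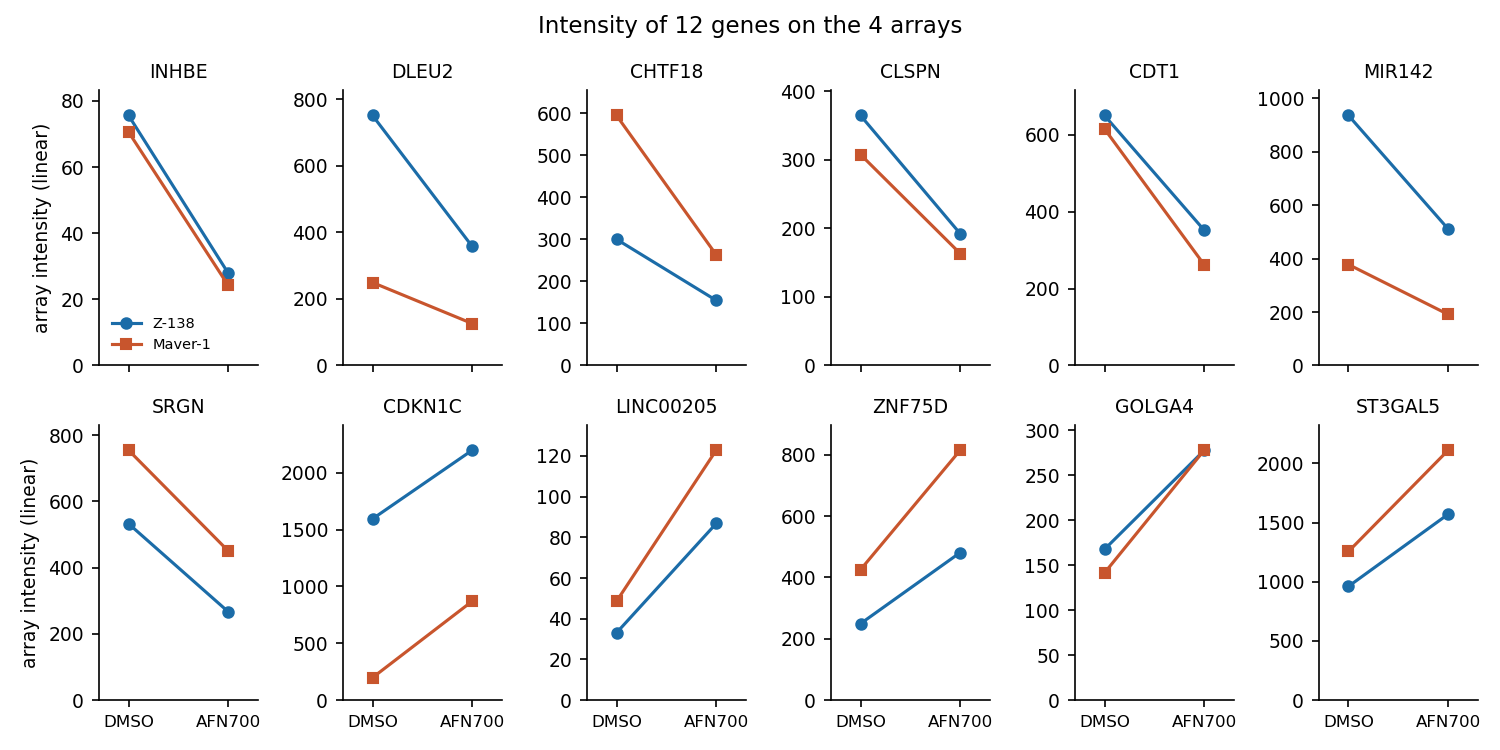
Array intensity on a linear scale with DMSO and with AFN700 for 12 genes, 1 panel each with its own vertical axis from 0, with lines joining the arrays of Z-138 (circles) and Maver-1 (squares). In the first 7 panels both lines are lower with AFN700, as for CDT1 from 649.8 to 351.6 and from 614.9 to 261.9, and in the other 5 both are higher.

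DNA replication genes as a group were lower in both lines. These genes are switched on by E2F factors as cells enter S phase. Of 34 list entries 33 had a probe set and 32 were tested, and 25 of the 32 were lower in both lines and 1 (TYMS) higher in both, against 24.3% and 30.7% of all genes. The medians were -0.30 in Z-138 and -0.28 in Maver-1, against 0.03 and 0.01 over all genes tested. CDT1, CDC6 and GINS2 passed the test, all lower. CDC6, which loads the helicase together with CDT1, stood at 546.7 and 255.6 in Z-138 and at 473.8 and 375.2 in Maver-1, and fell by 0.71 ± 0.19 (SE, n = 2 lines, limma adjusted p = 0.0328). A second CDC6 probe set hardly differed in Maver-1, at 393.2 and 378.8, and stood at 415.7 and 274.4 in Z-138. GINS2, a subunit of the active helicase, stood at 1359.8 and 797.2 in Z-138 and at 1505 and 1180.7 in Maver-1, and fell by 0.56 ± 0.14 (limma adjusted p = 0.0149). Neither gene's groups overlapped.

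The other members did not pass one by one. CCNE2, which encodes cyclin E2, stood at 1059.4 and 683.2 in Z-138 and at 882.3 and 645.8 in Maver-1 (limma adjusted p = 0.0574). MCM5, a helicase subunit, stood at 417.9 and 225.3, and at 627.5 and 531.3. CHAF1A, a histone chaperone of the fork, stood at 451.3 and 337.2, and at 557.8 and 433.7. Some abundant members hardly differed, with MCM7 at -0.05 and -0.01 and FEN1 at -0.10 and 0.06 in Z-138 and Maver-1. TYMS stood at 0.02 and 0.13, and was not higher in both lines after quantile normalization or centring. Array RNA comes from the whole culture, so fewer cells in S phase and less of each RNA per cell cannot be told apart.

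**Figure D4:**
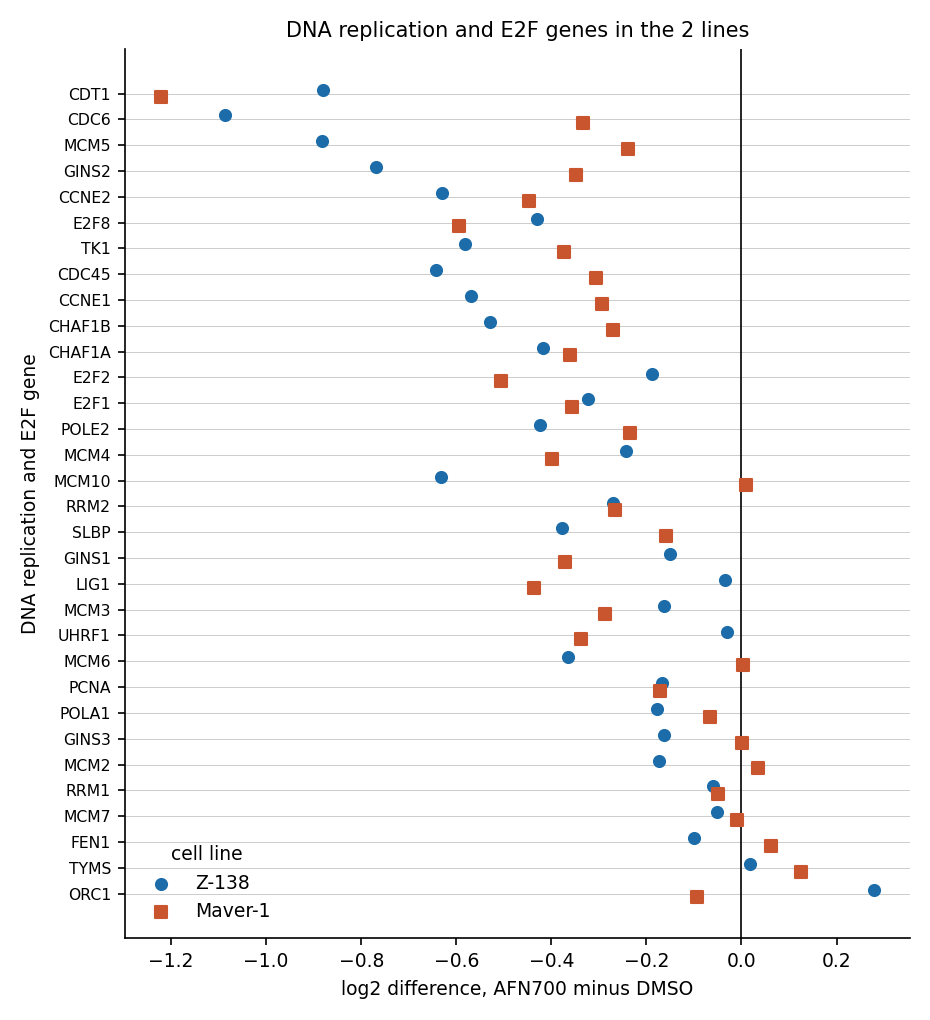
Log2 difference, AFN700 minus DMSO, of each of 32 tested DNA replication and E2F genes in Z-138 (circles) and Maver-1 (squares), ordered by the mean of both. CDT1 at the top stands at -0.88 and -1.22, and 25 of the 32 genes are left of 0 in both lines.

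Lower medians were not seen in every line. Medians of the same 32 genes were -0.27 in REC-1 (30 lower), -0.86 in GRANTA-519 (32 lower), 0.00 in SP49 (15 lower), -0.01 in JVM-2 (17 lower), 0.01 in HBL-2 (15 lower) and 1.07 in JVM-13 (2 lower). Over all 8674 genes tested, the numbers lower in these lines were 4101, 4681, 3879, 4288, 3360 and 3336 in the same order. Mitosis genes split by line. Of 28 tested, 1 was lower in Z-138 and 21 in Maver-1, against 3911 and 4200 of all 8674 genes. Their medians were 0.22 in Z-138 and -0.14 in Maver-1. In both lines 1 was lower and 7 higher, against 24.3% and 30.7% of all genes. In the promoters of CDT1 and CLSPN an E2F motif lies within the stretch shown. The letters searched on both strands were TTTCGCGC, TTTGGCGC or TTTCCCGC, and capitals mark the match, which reads on the opposite strand in both. The stretches are built as above, at chr16:88803539-88803838 on the plus strand and at chr1:35769929-35770228 on the minus strand.
CDT1: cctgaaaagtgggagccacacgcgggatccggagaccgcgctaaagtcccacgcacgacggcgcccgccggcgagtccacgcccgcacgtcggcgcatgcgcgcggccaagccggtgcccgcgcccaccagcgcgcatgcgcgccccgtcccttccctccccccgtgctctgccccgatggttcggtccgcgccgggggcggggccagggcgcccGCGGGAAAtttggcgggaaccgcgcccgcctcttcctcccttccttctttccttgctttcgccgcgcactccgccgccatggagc
CLSPN: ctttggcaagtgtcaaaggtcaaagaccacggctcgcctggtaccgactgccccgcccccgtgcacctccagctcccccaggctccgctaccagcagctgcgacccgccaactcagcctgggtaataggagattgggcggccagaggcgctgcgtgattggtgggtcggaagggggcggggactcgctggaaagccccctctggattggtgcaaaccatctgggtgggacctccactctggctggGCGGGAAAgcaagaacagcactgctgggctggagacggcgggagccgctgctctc
Of 28 list members with a promoter entry 17 (60.7%) held the motif, against 6.31% of 7291 tested genes with an entry. Counted per promoter, 2.74% of all 35116 promoters held it. The list was drawn up as E2F genes, so the share of 60.7% describes the list and not the response.

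On the higher side CDKN1C had the smallest p-value. It encodes p57, an inhibitor of cyclin-dependent kinases, and stood at 1594.5 and 2198.2 in Z-138 and at 198.4 and 870.5 in Maver-1. It rose by 1.29 ± 0.15 (SE, n = 2 lines, limma adjusted p = 2.7e-13), mostly in Maver-1, where it was 4.33-fold higher against 1.38-fold in Z-138. The groups overlapped because Z-138 began high. All 5 CDKN1C probe sets were higher with AFN700 in both lines. REC-1 and SP49 also had higher CDKN1C, at 0.63 and 0.81, as did GRANTA-519 and HBL-2, while it was dim in JVM-2, at 4.9 and 3.4, and in JVM-13, at 1.2 and 5.6.

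ST3GAL5 encodes the sialyltransferase that makes the ganglioside GM3. It stood at 961.1 and 1570.3 in Z-138 and at 1255.6 and 2110.6 in Maver-1, and rose by 0.73 ± 0.13 (limma adjusted p = 4.93e-05). ZNF75D, a zinc finger gene, stood at 249.4 and 481.2 in Z-138 and at 425.4 and 814.8 in Maver-1, and rose by 0.94 ± 0.19 (limma adjusted p = 3.85e-04). The noncoding RNA LINC00205 was dim with DMSO, at 33.1 (Z-138) and 48.6 (Maver-1), and stood at 86.8 and 122.8 with AFN700, a rise of 1.29 ± 0.29 (limma adjusted p = 0.00358). In these 3 genes every treated array exceeded every control array. FMC1, an assembly factor of the mitochondrial ATP synthase, stood at 380.3 and 605.1, and at 450.2 and 1200.2 (limma adjusted p = 6.83e-06).

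Further genes rose in both lines with less margin. The golgin gene GOLGA4 stood at 167.7 and 277.7 in Z-138 and at 141.5 and 277.9 in Maver-1 (limma adjusted p = 0.0328). IP6K2, an inositol phosphate kinase gene, stood at 173.7 and 290.2, and at 175.3 and 320.9 (limma adjusted p = 0.0416). H3C6, a histone H3 gene, stood at 50.8 and 114.5, and at 41.8 and 104.4 (limma adjusted p = 0.00857), so histone genes went both ways, as H2AC6 also rose (546.3 and 1136, and 362.6 and 458.3, limma adjusted p = 0.0155) while H2AC17 fell. DRC9, OSER1-DT, MINCR and STK36 passed too (limma adjusted p = 0.0416, 0.0328, 0.044 and 0.0416). COQ8B, PHF7, MYLK3, SUOX and LOC441081 did not (limma adjusted p = 0.232, 0.0767, 0.281, 0.171 and 0.168). SOX11 itself stood at 2335.8 and 3009.8 in Z-138 and at 959.6 and 1370.7 in Maver-1 (limma adjusted p = 0.0422), a rise of 0.44 ± 0.12. Its other probe sets also had higher values with AFN700 in both lines, at 929.3 and 1394.6 and at 1502.5 and 2515.2 in Z-138, and at 456.8 and 625.5 and at 832.5 and 1243 in Maver-1.

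Stress and metabolic genes gave differences mostly under 1.5-fold. Of 13 tested targets of NRF2, the factor of the oxidative stress response, 9 were lower in both lines and 1 higher. Over all genes tested these shares were 24.3% and 30.7%. The NRF2 targets had a median of -0.25 in each line, and limma passed 0 of them. TXNRD1, thioredoxin reductase, came closest, at 2865.6 and 2359.1 in Z-138 and at 2763.4 and 2038.2 in Maver-1 (limma adjusted p = 0.0684). GCLM, needed for glutathione synthesis, stood at 270.4 and 175.4, and at 329.8 and 239. Of 19 tested genes of the integrated stress response and serine synthesis, 10 were lower in both lines and 1 higher, with medians of -0.15 and -0.13. PHGDH, the first enzyme of serine synthesis, stood at 753.6 and 563.5 in Z-138 and at 1357.8 and 709.1 in Maver-1, without overlap, and fell by 0.68 ± 0.16 (limma adjusted p = 0.00575). PSAT1, the next enzyme, stood at 362.7 and 239.6, and at 650.6 and 446.8, and did not pass (limma adjusted p = 0.146). ATF4, the factor that drives this list, stood at 2590.8 and 2474.6, and at 2752.2 and 2688.9.

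**Figure D5:**
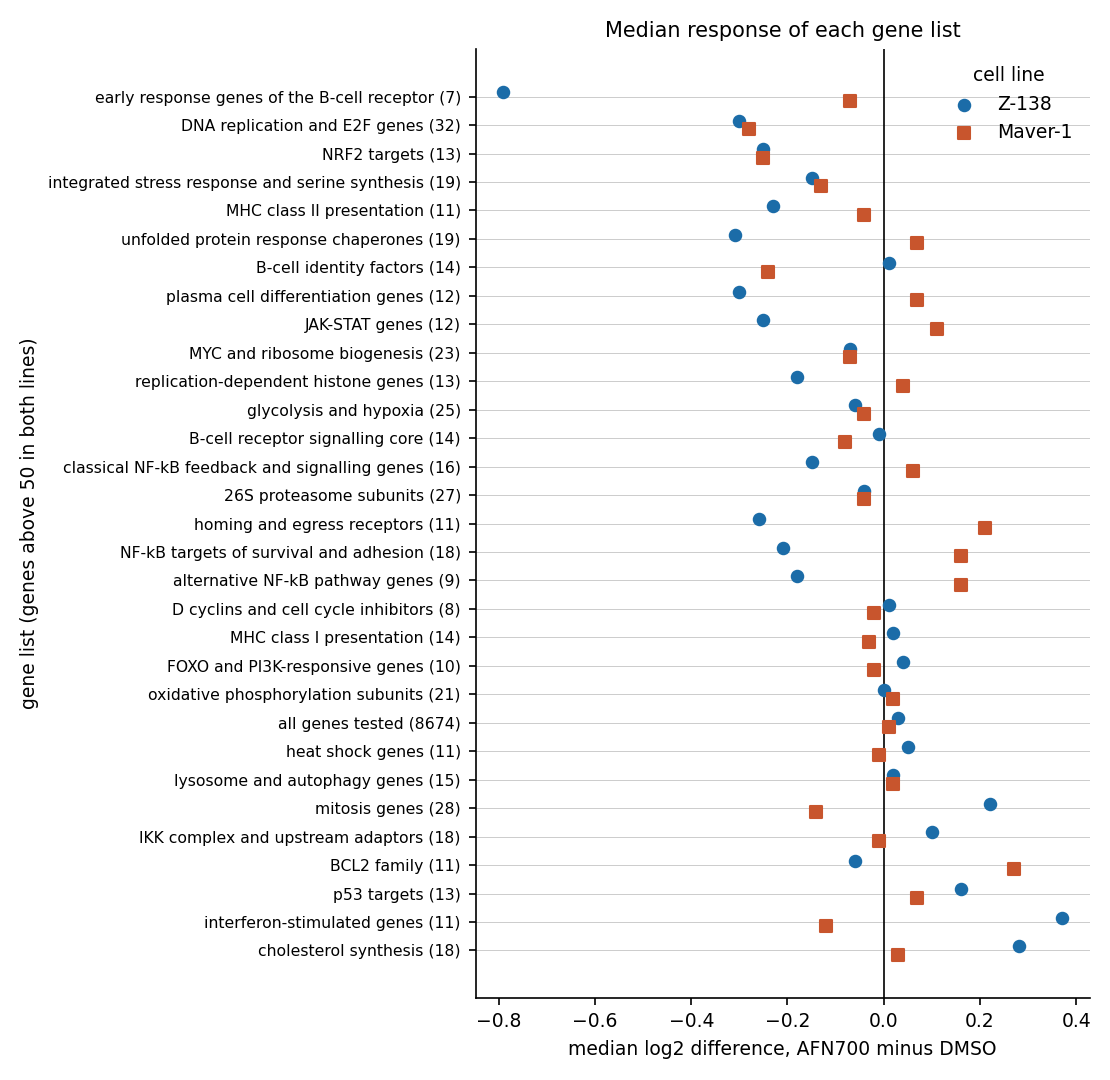
Median log2 difference, AFN700 minus DMSO, in Z-138 (circles) and Maver-1 (squares) for 30 gene lists with at least 7 tested genes and for all genes tested, with the number of tested genes in brackets. DNA replication and NRF2 genes are lower by similar amounts in both lines (-0.30 and -0.28, and -0.25 and -0.25), while genes that respond early to the B-cell receptor stand at -0.79 and -0.07.

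Some lists had medians away from 0 mainly in Z-138, a contrast between single pairs of arrays that has no test. Chaperones of the unfolded protein response were lower for 17 of 19 genes in Z-138 and for 8 of 19 in Maver-1, with medians of -0.31 and 0.07. Over all 8674 genes tested, 3911 were lower in Z-138 and 4200 in Maver-1. HSP90B1, an endoplasmic reticulum chaperone, stood at 1424.2 and 1115.4 in Z-138 and at 889.9 and 334.8 in Maver-1 and fell (limma adjusted p = 4.14e-05). Its other probe set was less uneven, at 677.4 and 433.9, and at 421.2 and 260.4. CALR, calreticulin, stood at 2039.9 and 1158.5 in Z-138 and at 1673.9 and 1525.8 in Maver-1 (limma adjusted p = 0.0298). Of its other probe sets, the brighter was lower in both lines, at 1264.7 and 710.3, and at 800.6 and 626.6. The dimmer stood at 334.2 and 226.7 in Z-138 but was higher with AFN700 in Maver-1, at 207.3 and 287.1. Cholesterol synthesis genes had medians of 0.28 and 0.03 and interferon-stimulated genes 0.37 and -0.12, and limma passed 0 of 18 and 0 of 11. In the B-cell receptor list PRKCB, a kinase upstream of the IKK complex, stood at 164.3 and 128.9 in Z-138 and at 1122.4 and 534.7 in Maver-1 (limma adjusted p = 0.0476).

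Genes that moved at least 1.5-fold in opposite directions numbered 25, of which 17 were higher in Z-138 and 8 in Maver-1. NR4A3, an early response gene of lymphocyte receptors, stood at 78.3 and 34.9 in Z-138 and at 243.6 and 431.6 in Maver-1. IL10RA, the receptor for interleukin 10, stood at 52.5 and 26.5 in Z-138 and at 203.4 and 343.7 in Maver-1. PPP1R11 and TIMM29 went the same way by their brightest probe sets. A second PPP1R11 probe set also went opposite ways, at 190.3 and 168.1 in Z-138 and at 143.2 and 189.8 in Maver-1. Yet another was lower in both lines, at 140.7 and 86.8, and at 97.1 and 74. On the other side, PGAP1 stood at 41.8 and 97.1 in Z-138 and at 67.7 and 30.4 in Maver-1, KLHL17 at 86.4 and 155, and at 162.1 and 49.5, and LOC102724851 and SEC31B likewise. The tested mean response of these 8 genes hides their opposite signs, and the difference between single arrays of 2 lines has no test.

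The response of Z-138 and Maver-1 was then set against that of REC-1 and SP49 in 1 limma fit of 8 arrays with the line as a block. Of 10469 genes that passed 50 on at least 2 arrays, 2 (0.0191%) were called at an adjusted p under 0.05, and both are classical NF-kB genes with lower values after AFN700 in the sensitive lines. TNFAIP3 differed by 2.11 ± 0.29 (SE, n = 2 against 2 lines, 95% interval 1.52 to 2.71, limma adjusted p = 0.00404). It alone kept its call in a 12-array fit that was added after seeing the data (limma adjusted p = 0.0338). With 14 or 16 arrays in the fit, without the trend, or with the mean of all probe sets, 0 genes were called. The dimmer TNFAIP3 probe set gave 1.99 (limma adjusted p = 0.0965). The call for CXCL10 (limma adjusted p = 0.0131) says nothing of its response in Z-138 and Maver-1. It was already at 4.0 or less there with DMSO, so a fall could not have been seen, and it was tested only because REC-1 and SP49 had signal, so no size is given. Next came NFKBIA (1.42, limma adjusted p = 0.086) and ICAM1 (1.77, limma adjusted p = 0.192), neither of which passed. The second ICAM1 probe set by brightness gave 0.69 (limma adjusted p = 0.974). EBI3 had a limma adjusted p of 0.0965 and the same limit as CXCL10, since it did not exceed 1.9 in Z-138 or Maver-1.

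In the other direction 0 genes passed. The 6 of largest size at an unadjusted p under 0.01 were CCL4, CRACR2B, DEPP1, CPLX1, PDE4D and LOC100652768, with limma adjusted p-values between 0.36 and 0.751. CCL4 had the largest difference, -2.42. It stood at 317.8 and 1512.3 in REC-1 but at 1656.5 and 1246.9 in SP49. In Z-138 it stood at 279.1 and 53.4, and in Maver-1 at 13.4 and 7.0, near background. PDE4D and LOC100652768 stayed under 50 on every array of Z-138 and Maver-1. They were tested only because sensitive lines had signal, so they have the same limit as CXCL10. CPLX1 was tested only through its signal in Z-138. For the replication genes the fit gave no call. CDT1 stood at -0.33 in REC-1 and -0.15 in SP49, CLSPN at -0.38 and -0.82, and CHTF18 at -0.16 and -0.17. Of the 35 genes at least 1.5-fold lower in both Z-138 and Maver-1, 20 had the same sign in both sensitive lines and 8 were at least 1.5-fold lower there. Of the 32 higher genes, 27 had the same sign and 8 were at least 1.5-fold higher. Over all 8674 tested genes, 2241 were lower in both sensitive lines and 2928 higher in both, 44 and 97 of them by at least 1.5-fold.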

How the data were processed

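The 16 Affymetrix HG-U133 Plus 2 arrays were deposited as linear intensities that the authors made with MAS5, as the submitters' processing notes say; its version is not given in the sources used here. Each array has a mean of 150 after 2% is trimmed from each end, and no further scaling was applied. Total RNA was extracted with RNeasy Plus and amplified with NuGEN Ovation, per the labels' protocols. No detection calls were used, so low intensities cannot be told from background, and precision is limited by there being few arrays.

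Of 54675 probe sets, 41097 name 1 gene in the platform table, 1801 name several, 11777 are unnamed here and 62 are controls. For each of 19775 genes the brightest probe set by its mean was used. Values were taken to log2(intensity + 3.3), 3.3 being the 25th percentile. The deposited intensities were tested with limma 3.58.1 in R 4.3.3 (lmFit, eBayes with trend, cell line as a block), with Benjamini-Hochberg adjustment over all genes tested and 0.05 as the threshold. The line pairs the arrays because both come from the same cell line. SE is the moderated standard error, which in the 4-array fit was the same for genes of like intensity. The 4-array fit tested 8674 genes above 50 on at least 1 array of each line, and the 8-array fit tested 10469 genes above 50 on at least 2 arrays.

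Named genes were the first 15 per direction past 1.5-fold in both lines, fixed classical and alternative NF-kB genes, up to 3 such movers per list, the leading differences from REC-1 and SP49, and up to 4 per direction of opposite movers. Other genes were added after their values were seen. The members and gene lists were chosen with earlier results of these data known, so list counts are descriptions. Alternatives were other pseudocounts (1 and 16), quantile normalization, centring, other filters, the mean of all probe sets, no trend, no block, a threshold of 0.10, fits with all 16 or 14 arrays and leaving out each line. A 12-array fit without JVM-13 and HBL-2 and the alternatives for the replication genes were added after seeing the data. Promoters and microRNAs come from RefSeq tables on GRCh38.p14. Scripts were tested on simulated data. Python 3.11.15, numpy 2.4.6, pandas 2.3.3 and matplotlib 3.10.9 were used for tables and figures.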

Additional observations from a re-analysis of the deposited data

Results flagged for a closer look

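For TNFAIP3 the response of Z-138 and Maver-1 differed from that of REC-1 and SP49 in a direct limma test, by 2.11 on the log2 scale (adjusted p = 0.00404). CXCL10 was called too, with a fitted value of 4.23 (limma adjusted p = 0.0131). That value is no size of a difference in response, because CXCL10 was at 4.0 or less on all 4 arrays of Z-138 and Maver-1. Among named genes above 50 on at least 1 array of each of the 4 lines, 4 had one sign in Z-138 and Maver-1 and the opposite sign in REC-1 and SP49. The fit called none of them, and some differences were close to 0, such as 0.017 for TYMS in Z-138 and 0.011 for CHUK in Maver-1. CRACR2B, CPLX1, PDE4D and LOC100652768 had the same pattern with a signal under 50 in at least 1 line. VMP1, an autophagy gene, differed by -1.4 (limma adjusted p = 0.566), with 79.2 and 42.9 (Z-138), 62.7 and 26.1 (Maver-1), 115.4 and 190.4 in REC-1 and 87.1 and 92.4 in SP49. PRKCB differed by -0.88 (limma adjusted p = 0.508), with 1918.8 and 2220.7 in REC-1 and 1894.4 and 2080.2 in SP49. CHUK differed by 0.42 (limma adjusted p = 0.991), with 553.4 and 381 in REC-1 and 420.4 and 400.1 in SP49. TYMS differed by 0.15 (limma adjusted p = 0.991), with 2365.5 and 2141.3 in REC-1 and 2466.2 and 2437.8 in SP49.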

How the results depend on the processing

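With 2 lines and single arrays the calls depend on how limma sets the error. Against 80 genes in the response of Z-138 and Maver-1, limma called 43 after quantile normalization, 44 with arrays centred (29 lower and 15 higher, against 42 and 38), 151 at a threshold of 0.10, and 0 with no filter, with no trend, with no replicate block (that is, without pairing by line), with all 16 arrays, with 14 arrays or with 12. At an unadjusted p under 0.05 these 6 fits passed 1450, 794, 17, 51, 187 and 509 genes. The mean of all probe sets gave 100, of which 37 were among the 80. Leaving out either line gave 0 to 0 calls (19 at an unadjusted p under 0.05), in fits of 14 arrays with JVM-13, where the response rests on 1 pair whose spread is taken from the other lines. The 2 calls of the difference from REC-1 and SP49 became 1 with a pseudocount of 1, 1 after quantile normalization, 1 with a filter at 100, 1 with 12 arrays, 3 with a pseudocount of 16, 4 at a threshold of 0.10, and 0 with no filter, the mean of all probe sets, no trend, no replicate block, all 16 arrays or 14, and 0 to 0 without any 1 line. The 67 genes past 1.5-fold one way in both lines became 552 with no filter, 43 with a filter at 100, 4 at 2-fold, 46 with the mean of all probe sets (27 lower and 19 higher, against 35 and 32), and 557 to 572 with 1 line. The 25 replication genes lower in both lines numbered 24 to 28 under other scalings, filters and probe set rules. Of the 30 genes named for moving 1.5-fold in both lines, 30 kept one sign and 29 stayed past 1.5-fold under 4 scalings and pseudocounts. Of 841 values of named genes under alternatives, 5 reversed: DLEU2 by a dim probe set (0.22), CLSPN by a dim one (0.003), SYNGR1 by another (0.217), and ENPP2 (0.024) and RARS1 (0.054) without Z-138, against -1.93 and -1.601 without Maver-1. TNFAIP3 by its other probe set gave 1.99.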

Other observations

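RARS1, which encodes arginyl-tRNA synthetase, passed the test with opposite signs. It stood at 477.4 with DMSO and 155.2 with AFN700 in Z-138 and at 380.5 and 395 in Maver-1 (limma adjusted p = 0.024), and it was also lower in REC-1 (-1.68) and SP49 (-0.44). SLC7A11, the cystine transporter that NRF2 and ATF4 induce, was not tested because it stayed under 50 in Z-138 (44.5 and 26.6), and in Maver-1 it stood at 421.9 and 228.8. DUSP1, a phosphatase gene of the early response, went opposite ways, at 78.1 and 202 in Z-138 and at 75.3 and 50.9 in Maver-1. MYC stood at 1531.7 and 1965 in Z-138 and at 1367 and 885.6 in Maver-1. GADD45B, a stress gene that NF-kB induces, stood at 703.4 and 756.1 in Z-138 and at 283.9 and 462.8 in Maver-1. These genes were chosen after their values were seen.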
